A study of Homo sapiens with 12 samples.

Results

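Interleukins and epithelial cytokines are small secreted proteins by which a cell signals to immune cells and to its neighbours. The 10 genes described here were chosen by name from the deposited count table: IL6, IL11 and LIF, which signal through gp130 receptors, IL1A and IL1B of the interleukin-1 family, IL32, TSLP, IL23A, IL24 and CSF2. They are 10 of the 57500 genes of the table. Each symbol stood on 1 Ensembl ID, so the clause of the rule that prefers the ID with most counts chose nothing, and the summed counts of the members over all libraries ran from 221 (IL24) to 11691 (IL1A). The list was drawn up with earlier results of these data known, among them the rises of IL6 in MDA-MB-468 and of IL32 in HCC1806. Tests of members below are therefore descriptions of these libraries and not independent evidence, and every adjusted p-value is taken over all genes tested.

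The libraries came from HCC1806 and MDA-MB-468, established cell lines of triple-negative breast cancer, a tumour type without estrogen and progesterone receptors or HER2 amplification. The 4 groups of 3 libraries were HCC1806 with the control guide sgC1, HCC1806 with the guide sgPACT-2, MDA-MB-468 with the control guide sgNTA and MDA-MB-468 with sgPACT-2. sgPACT-2 directs Cas9 to PRKRA, the gene of PACT, a double-stranded RNA binding protein whose relation to the kinase PKR is the subject of the series title. All groups are CRISPR-Cas9 cultures, the control guide differs between the lines, and "depleted" below names the guide sgPACT-2. The labels used here do not say whether they are clones or pools, how long after depletion RNA was taken, or whether the 3 replicates are separate cultures, so that a p-value measures only the spread between these libraries.

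Cytokine genes are often, though not always, held low in resting epithelial cells and switched on by inducible transcription factors such as NF-kappaB and AP-1. Many of their transcripts are short-lived because proteins that bind AU-rich elements speed their decay. Interleukin-1 alpha and beta act through IL1R1, interleukin-6, interleukin-11 and LIF through receptors that contain gp130 (IL6ST), and TSLP, a product of epithelial barriers, through CRLF2 with IL7R.

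The start regions of 4 of the members are printed. These transcripts were higher after depletion in at least 1 line and hold matches to motifs of inducible factors. Both traits were used in the choice, so the printed windows do not show that these go together. The sequences are RefSeq windows (GRCh38.p14) of 300 bases, from 250 before to 50 after an annotated start, 5′ to 3′ on the strand of the gene. Capitals mark matches to the kappaB motif of NF-kappaB, to the AP-1 motif TGANTCA or to the cyclic AMP response element TGACGTCA, on either strand.
IL6, chr7:22726950-22727249, plus strand: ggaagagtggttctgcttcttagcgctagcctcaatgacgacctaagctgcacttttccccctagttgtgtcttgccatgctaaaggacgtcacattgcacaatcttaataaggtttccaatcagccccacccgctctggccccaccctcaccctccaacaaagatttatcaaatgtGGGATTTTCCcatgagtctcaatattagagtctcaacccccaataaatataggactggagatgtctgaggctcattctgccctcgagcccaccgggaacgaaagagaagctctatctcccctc
IL32, the upstream of 2 windows, chr16:3065153-3065452, plus strand: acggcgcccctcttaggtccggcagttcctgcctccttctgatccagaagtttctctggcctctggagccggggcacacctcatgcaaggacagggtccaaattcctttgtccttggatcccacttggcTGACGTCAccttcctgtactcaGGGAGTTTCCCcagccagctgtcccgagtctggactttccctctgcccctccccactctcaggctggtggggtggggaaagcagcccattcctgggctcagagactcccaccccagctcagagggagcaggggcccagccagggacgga
TSLP, the second of 3 windows, chr5:111071463-111071762, plus strand: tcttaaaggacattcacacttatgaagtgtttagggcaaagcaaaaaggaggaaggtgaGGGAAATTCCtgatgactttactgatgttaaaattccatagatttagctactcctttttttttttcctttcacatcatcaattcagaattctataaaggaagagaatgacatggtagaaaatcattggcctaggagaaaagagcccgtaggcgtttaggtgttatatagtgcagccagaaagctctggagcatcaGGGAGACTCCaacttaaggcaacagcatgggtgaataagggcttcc
IL11, chr19:55370414-55370713, minus strand: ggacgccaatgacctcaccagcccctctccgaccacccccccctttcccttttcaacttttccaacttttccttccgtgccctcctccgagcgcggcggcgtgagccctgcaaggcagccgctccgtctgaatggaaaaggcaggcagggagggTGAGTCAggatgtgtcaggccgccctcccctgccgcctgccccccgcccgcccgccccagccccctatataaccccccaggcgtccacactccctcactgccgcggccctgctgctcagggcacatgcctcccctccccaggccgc

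The promoter table held 13 windows for 9 of the 10 members, all but LIF. The unprinted window of IL32 and the unprinted windows of TSLP held no match to any motif searched. IL1A and IL23A held matches and did not pass in either line in the model of 12 libraries. A kappaB match was present for 4 members, in 4 of the 13 windows, and 11.3% of all 35116 windows of this length held one. IL6 had GGGATTTTCC from 73 bases before the start, IL32 had GGGAGTTTCC from 99 bases before it, and IL23A had GGGGAATCCC from 95 bases before it. TSLP had GGGAAATTCC from 191 bases before and GGGAGACTCC from 4 bases after the start of its second window. In IL32 a kappaB match on the minus strand overlapped that on the plus strand by all but 1 base, and in IL23A the same letters matched on both strands. AP-1 matches stood in windows of IL1A, IL11 and IL23A, in 4 of the 13 windows (7.71% of all windows). The IL1A windows overlap and hold the same AP-1 matches. The cyclic AMP response element stood in 1 window, of IL32 (1.85% of all windows). No member window held TGATGNAA, a C/EBP-ATF composite motif (3.62%). The letters TATAAA stood in windows of 3 members, in 3 of the 13 windows (11.5% of all windows). They began 239 bases before the start in IL1A, 100 in TSLP and 62 in IL23A, and whether they act as a TATA box was not tested. These are descriptions of letters and not of binding, and no binding was measured.

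The libraries held 18640633 to 24704877 counts for HCC1806 and 34581754 to 44790741 for MDA-MB-468. PRKRA, the targeted gene, measured 72.1 to 82.6 CPM (counts relative to library size, scaled by TMM factors) in HCC1806 controls and 36.1 to 37.5 in depleted libraries, a log2 fold change of -1.07 (SE 0.10, edgeR adjusted p-value 1.7e-05). In MDA-MB-468 it measured 41.1 to 46.9 and 35.5 to 41.6 CPM, the groups overlapped, and the change of -0.20 (SE 0.10) did not pass (edgeR adjusted p-value 0.958). Depletion in MDA-MB-468 is therefore taken from the labels alone. The 8 epithelial markers, EPCAM, CDH1, KRT5 and EGFR among them, were present in every group. Their summed level was 3735 to 4182 CPM in HCC1806 controls and 2728 to 3011 in depleted HCC1806. In MDA-MB-468 it was 12490 to 12920 in controls and 12780 to 14170 after depletion. EGFR made up most of the sum in MDA-MB-468, with averages of 8273 and 9489 CPM in control and depleted libraries. EGFR was the 1 marker of the 8 with a positive estimate there, and their median log2 fold change was -0.09. PGR averaged 0.0573 and 0.0101 CPM in the HCC1806 and MDA-MB-468 controls, ESR1 20.9 and 6.67, and ERBB2 194.2 and 139.8. The leukocyte markers MS4A1 and TYROBP were at 0 counts in every group, and PTPRC averaged 0.221 to 0.335 CPM. Other markers of that list were present. CD14 averaged 98.7 and 78.6 CPM in control and depleted MDA-MB-468, CSF1R 21.3 and 19.9, and CD68 2.92 in HCC1806 controls. In HCC1806 the libraries of replicate 1, control and depleted, lay apart from the other 4 on the first principal component (40.1% of variance), with scores of -26.4 and -37.2 against 1.32 to 33.9.

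Under the control guides the lines differed in which cytokine transcript stood first. Per length of exon, IL1A led in HCC1806 controls with 31.1 ± 13.2 CPM per kb (SD, n = 3) and IL1B came next with 19.4 ± 7.34, and their ranges overlapped. IL23A followed with 2.46 ± 0.653 and LIF with 1.62 ± 0.279, and neither range overlapped a neighbour. CSF2, IL11, IL32, TSLP and IL24 came after them between 0.784 and 0.281, each overlapping the next, and IL6 stood last at 0.0279 ± 0.0242. In MDA-MB-468 controls LIF led with 11.5 ± 2.29 CPM per kb, above every library of the other 9. IL23A was next with 0.573 ± 0.462, and CSF2 and IL32 were last at 0.0211 and 0.0176. Neighbours in that order overlapped, except LIF with IL23A and IL11 with IL1A.

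The order changed in the depleted groups. In HCC1806 IL1A (47.5 ± 32.6 CPM per kb, SD, n = 3), IL1B (19.4 ± 11.0) and IL23A (4.66 ± 2.31) kept the first places, and CSF2 (3.58 ± 3.10) and IL32 (3.43 ± 0.512) had means above that of LIF (2.59 ± 0.345). The CSF2 libraries measured 6.97, 2.86 and 0.891 CPM per kb, a range that spans that of LIF. In MDA-MB-468 LIF (12.6 ± 0.868) still led, and IL6 stood next with 2.08 ± 0.713 and TSLP after it with 1.01 ± 0.260. The IL6 and TSLP ranges did not overlap there, while those of TSLP and IL23A (0.889 ± 0.171) did.

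**Figure D1:**
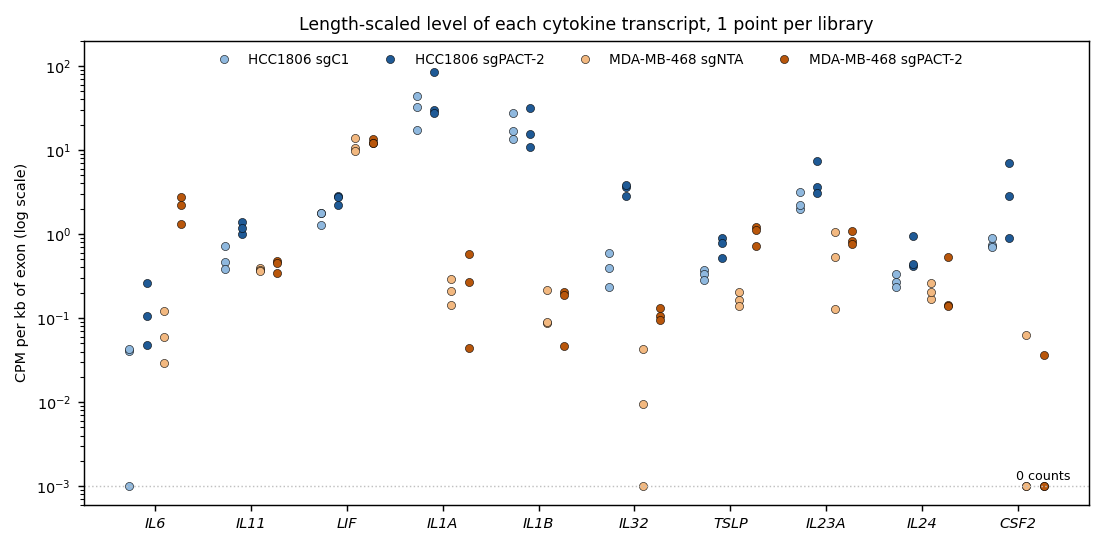
Level of each cytokine transcript in CPM per kb of exon (log scale), 1 point per library, coloured by group; libraries with 0 counts are drawn on the dotted line. IL1A and IL1B are the highest transcripts in HCC1806, and LIF is the highest in MDA-MB-468 in both of its groups.

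The control groups of the lines were compared in the same model, in which line and control guide cannot be told apart. Of the 10 members 7 differed, 6 lower and 1 higher in MDA-MB-468, where 74.2% of all genes tested differed (34.2% higher and 40.1% lower in MDA-MB-468), a share close to that of the members. IL1A was 145.3-fold higher in HCC1806 by summed counts (95% counting interval 110 to 196) and IL1B 149.7-fold (111 to 206). The log2 differences, MDA-MB-468 minus HCC1806, were -7.16 (SE 0.59) and -7.20 (SE 0.49), with edgeR adjusted p-values of 6.0e-09 and 4.8e-10. LIF had the opposite sign, 2.82 (SE 0.17, edgeR adjusted p-value 6.9e-11). IL32, IL23A and TSLP differed by -4.48, -2.06 and -0.97. CSF2 had 43 counts in the HCC1806 controls and 2 in the MDA-MB-468 controls, a ratio of 33.5 with a counting interval of 8.72 to 285.1. IL6, IL11 and IL24 did not pass. The median of all genes in this comparison was -0.26, and -0.51 when libraries were scaled by size only, where the same 7 members passed with the same signs.

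Between depleted and control libraries, 4 of the cytokine transcripts passed the test in HCC1806 and 2 in MDA-MB-468. In HCC1806, IL32, IL11, TSLP and LIF rose, 4 of 10 members, where 1.16% of all genes tested rose and 2.49% changed in either direction. The call of IL32 held in every fit, and those of IL11, LIF and TSLP in HCC1806 were lost in most fits without 1 library, which gave 1 to 3 members. In MDA-MB-468, IL6 and TSLP rose, 2 of 10, where 0.17% of all genes rose. All 46 genes called in MDA-MB-468 were higher and 0 were lower, so the direction of the members there is that of every call. No member fell in either line: edgeR, edgeR with an unadjusted p-value under 0.05 and DESeq2 each gave 0, where DESeq2 gave no adjusted p-value for 3 members in HCC1806. In HCC1806 1.32% of all genes fell. At an unadjusted p-value under 0.05, 1795 of the 27029 genes tested were higher and 2114 lower in HCC1806, and 874 and 550 in MDA-MB-468. In bulk RNA, more transcript per cell and more cells with the transcript cannot be told apart. TSLP was the 1 member past the threshold in both lines in the model of 12 libraries. The median log2 fold change of the 10 members was 1.11 in HCC1806, where the median of all genes tested was 0.01. In MDA-MB-468 it was 0.46 over the 9 members above 3 counts in some library, where that of all such genes was -0.02.

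**Figure D2:**
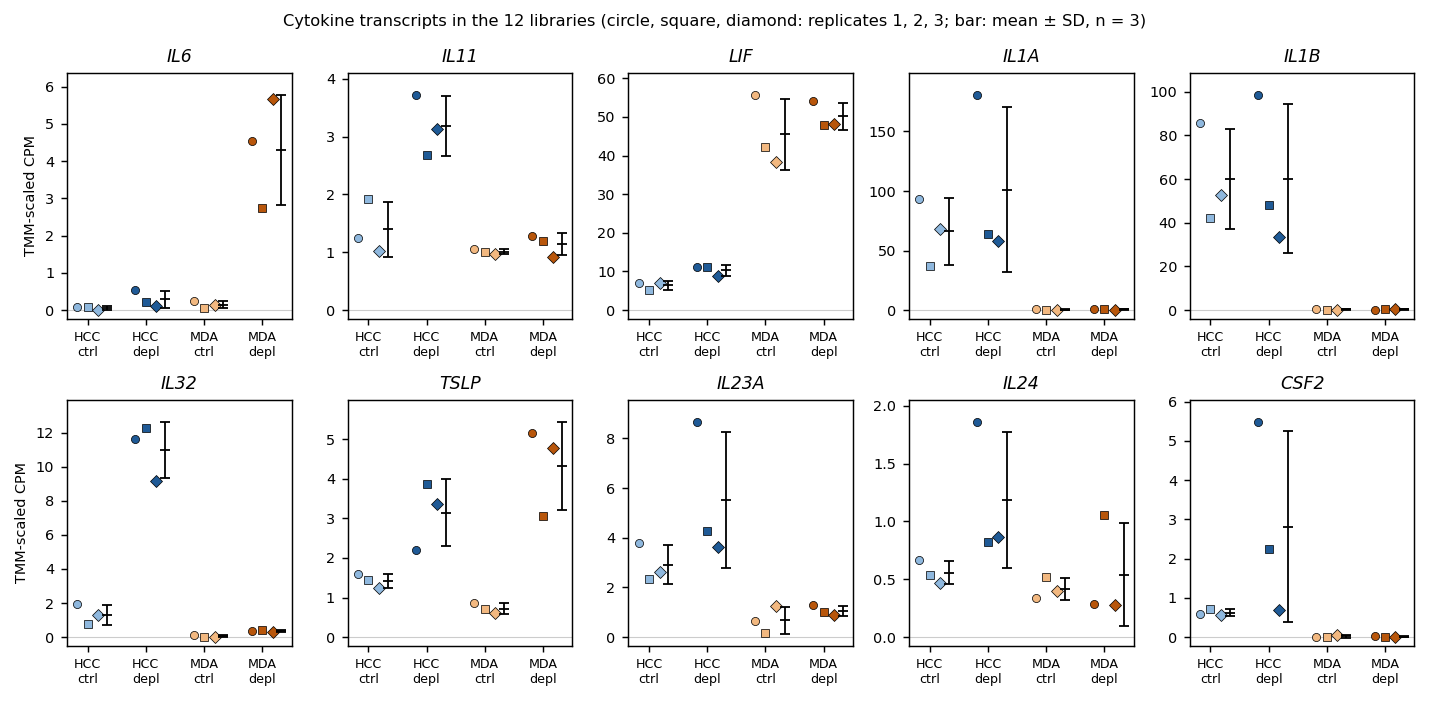
TMM-scaled CPM of each cytokine transcript in every library, by line and guide (ctrl, control guide; depl, sgPACT-2), with the mean and SD of 3 libraries beside each group; MDA stands for MDA-MB-468. Depleted libraries lie above all control libraries for 6 members in HCC1806 and for IL6, IL32 and TSLP in MDA-MB-468. For IL6 in HCC1806 the lowest depleted library held 3 counts and the highest control 2.

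In HCC1806 all 3 depleted libraries lay above all 3 controls for IL6, IL11, LIF, IL32, TSLP and IL24, 6 of 10 members, where 8.51% of all genes tested did so. For IL6 there, the lowest depleted library held 3 counts (0.100 CPM) and the highest control 2 (0.0895 CPM). In MDA-MB-468 the depleted libraries lay above all controls for IL6, IL32 and TSLP, 3 of 10, where 6.2% of all genes did. For no member did the depleted libraries of a line all lie below its controls, where 8.17% of all genes did so in HCC1806 and 6.94% in MDA-MB-468.

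IL6, the inducible cytokine that drives acute-phase and STAT3 signalling, had its largest change in MDA-MB-468. Its CPM was 0.251, 0.0608 and 0.125 in control replicates 1 to 3 and 4.53, 2.74 and 5.66 in depleted ones. The groups were far apart, with 16 counts in all control libraries together against 434 in the depleted ones. The log2 fold change was 4.84 (SE 0.56, edgeR adjusted p-value 4.1e-04), and it passed in all 12 leave-one-out fits (largest adjusted p-value 0.00862). In HCC1806 the IL6 counts were 2, 2 and 0 in controls and 11, 5 and 3 after depletion. The ratio of summed counts was 4.52 with a 95% counting interval of 1.5 to 18.3, and the test did not pass (edgeR adjusted p-value 0.253). The difference between the lines, 2.69 (SE 1.30), did not pass either (0.600). IL6 (ENSG00000136244, GRCh38 chromosome 7, 22725884 to 22732002) shares exon bases with STEAP1B and an antisense gene, AC073072.1, on the other strand. STEAP1B averaged 0.228 and 0.294 CPM in control and depleted MDA-MB-468. In HCC1806 it averaged 13.1 and 10.5 CPM, with 201 to 392 counts per library beside 0 to 11 of IL6, and since the strand setting is unknown its part in the IL6 counts of that line was not tested. In MDA-MB-468 AC073072.1 held 5 counts in the controls' replicate 3 and 13 in depleted replicate 3, against 184 of IL6 in the latter.

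IL11 (ENSG00000095752, chromosome 19, 55364389 to 55370463), a gp130 cytokine known from fibrosis and bone, rose in HCC1806. Its CPM was 1.25, 1.92 and 1.02 in controls and 3.72, 2.69 and 3.14 in depleted libraries. The groups did not overlap, and the log2 fold change was 1.19 (SE 0.30, edgeR adjusted p-value 0.0456). In MDA-MB-468 it measured 1.01 ± 0.0433 and 1.14 ± 0.189 CPM (SD, n = 3 each), with overlapping groups and a change of 0.17 (SE 0.31).

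LIF (ENSG00000128342, chromosome 22, 30240447 to 30246851), leukemia inhibitory factor, rose by a smaller step in HCC1806. Control libraries measured 7.00, 5.15 and 7.12 CPM and depleted ones 11.1, 11.0 and 8.71. All depleted libraries were above the controls, with a log2 fold change of 0.67 (SE 0.17, edgeR adjusted p-value 0.0414). In MDA-MB-468, where LIF was high from the start, it measured 55.7, 42.3 and 38.4 CPM in controls and 54.1, 48.0 and 48.2 after depletion. These overlapped, and the change was 0.14 (SE 0.15). LIF-AS1 and AC004264.1 overlap LIF on the other strand. AC004264.1 held 9, 6 and 6 counts in HCC1806 controls and 26, 11 and 16 in depleted libraries, beside 168, 115 and 168 and then 227, 255 and 261 of LIF.

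TSLP (ENSG00000145777, chromosome 5, 111070062 to 111078024), thymic stromal lymphopoietin, rose in both lines. In MDA-MB-468 its CPM was 0.864, 0.700 and 0.599 in controls and 5.16, 3.07 and 4.77 in depleted libraries. The lowest depleted library was above the highest control, and the log2 fold change was 2.58 (SE 0.30, edgeR adjusted p-value 4.1e-04), past the threshold in each of the 12 fits without 1 library. In HCC1806 controls measured 1.58, 1.43 and 1.23 CPM and depleted libraries 2.21, 3.86 and 3.37. The groups did not overlap there either, and the change was 1.15 (SE 0.30, edgeR adjusted p-value 0.0477). TSLP started lower in MDA-MB-468 controls than in HCC1806 controls and measured 4.33 ± 1.11 and 3.14 ± 0.849 CPM (SD, n = 3 each) after depletion. The difference between the responses was 1.43 (SE 0.42) and did not pass over all genes (edgeR adjusted p-value 0.279).

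IL32 (ENSG00000008517, chromosome 16, 3065297 to 3082192), a human cytokine with no close mouse counterpart that is known as an inflammatory gene, had the largest change among the members in HCC1806. Control libraries measured 1.92, 0.761 and 1.27 CPM and depleted ones 11.6, 12.3 and 9.15. The depleted libraries were close together and far from the controls, with a log2 fold change of 3.05 (SE 0.35, edgeR adjusted p-value 1.4e-04). It passed in each of the 12 fits without 1 library and with HCC1806 fitted alone (0.00183). In MDA-MB-468 IL32 was near the limit of detection, with 5, 1 and 0 counts in controls and 12, 14 and 10 after depletion. The libraries did not overlap, and the ratio of summed counts was 6.47 with a counting interval of 2.70 to 18.8. The log2 fold change of 2.60 (SE 0.65) did not pass with edgeR (adjusted p-value 0.223) and passed with DESeq2 (0.0281) and without a filter on low counts (0.00324). It ranged from 1.99 without control replicate 3 to 4.32 without control replicate 1 of MDA-MB-468 and passed in 0 of the 12 fits without 1 library, with adjusted p-values of 0.0861 to 0.701. The difference between the lines was -0.45 (SE 1.06) and did not pass.

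The calls of IL11, LIF and TSLP in HCC1806 depended on the fit. All 3 passed with DESeq2 (adjusted p-values of 0.00597, 0.00881 and 0.00905), which called 1245 genes in HCC1806 where edgeR called 672. They also passed with the replicate number as a block (edgeR adjusted p-values of 0.0289, 0.00754 and 0.0245). With this line fitted alone, IL11, LIF and TSLP had edgeR adjusted p-values of 0.187, 0.205 and 0.182, and IL32 alone was left of the 4. In the 12 fits that each left out 1 library, IL11 passed only without control replicate 2 of HCC1806 (0.0390). LIF passed only without depleted replicate 1 or 3 of HCC1806 or without control replicate 1 of MDA-MB-468, with adjusted p-values of 0.0249 to 0.0395. TSLP passed only without depleted replicate 1 of HCC1806 (0.00887) or without depleted replicate 2 of MDA-MB-468 (0.0448). Their log2 fold changes in these fits stayed between 1.00 and 1.49 for IL11, 0.54 and 0.78 for LIF, and 0.99 and 1.35 for TSLP. Without both HCC1806 libraries of replicate 1, the pair that stood apart, IL32 (3.38), TSLP (1.43) and LIF (0.67) passed, with edgeR adjusted p-values of 4.7e-05, 0.0159 and 0.0482, and IL11 (0.98) did not (0.198).

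**Figure D3:**
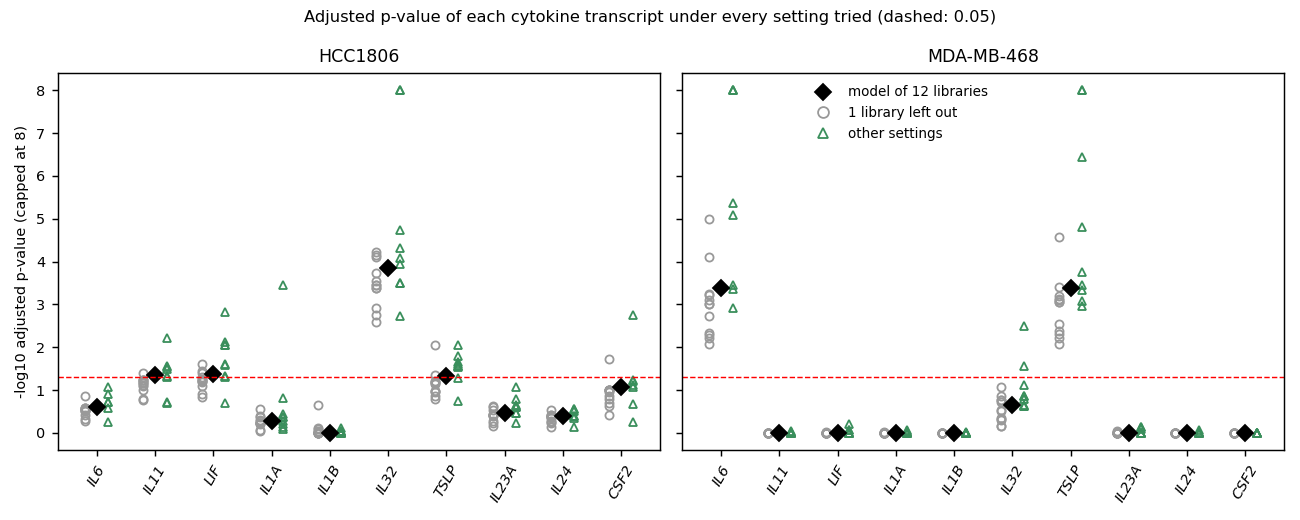
Adjusted p-value (as -log10) of each cytokine transcript in HCC1806 and MDA-MB-468 in the model of 12 libraries (diamonds), with 1 library left out (circles) and under the other settings (triangles); the dashed line is 0.05. IL32 in HCC1806, and IL6 and TSLP in MDA-MB-468, lie above the line in every fit drawn, while IL11, LIF and TSLP in HCC1806 scatter around it.

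The interleukin-1 genes, made as precursors and released on cell damage or after cleavage, did not pass in either line. Both lie on chromosome 2, IL1A (ENSG00000115008) from 112773915 to 112784590 and IL1B (ENSG00000125538) from 112829751 to 112836903. IL1A in HCC1806 measured 92.9, 37.2 and 68.2 CPM in controls and 180.8, 63.8 and 58.2 after depletion, so that the groups overlapped and depleted replicate 1 stood alone. Its log2 fold change was 0.61 (SE 0.39, edgeR adjusted p-value 0.539), -0.12 without that library and 0.21 without both libraries of replicate 1. Without a filter on low counts IL1A passed (edgeR adjusted p-value 3.6e-04) at the same log2 fold change of 0.61, with a smaller SE of 0.13. With DESeq2 IL1A did not pass (SE 0.75, adjusted p-value 0.733). IL1B measured 85.6, 42.0 and 52.6 CPM in controls and 98.6, 48.3 and 33.7 in depleted libraries, with a change of -8.0e-04 (SE 0.32). For both genes replicate 1 was the highest library of its group in HCC1806, in controls as after depletion. Between same-numbered libraries the log2 differences of IL1A were 0.96, 0.78 and -0.23 and those of IL1B 0.20, 0.20 and -0.64. In MDA-MB-468 each library held 3 to 41 counts of IL1A and 5 to 24 of IL1B, and the groups overlapped.

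CSF2 (ENSG00000164400, chromosome 5, 132073790 to 132076170), which encodes the growth factor GM-CSF, was uneven among the depleted libraries of HCC1806. Controls measured 0.584, 0.716 and 0.551 CPM, and depleted replicates 1 to 3 measured 5.49, 2.25 and 0.701. Replicate 3 lay within the control range and the others above it. The log2 fold change of 2.17 (SE 0.63) did not pass (edgeR adjusted p-value 0.0829). It was 1.24 without depleted replicate 1 (0.385), 1.20 without both libraries of replicate 1 (0.562) and 2.64 without depleted replicate 3, where it passed (0.0185), and it also passed without a filter on low counts (0.00175). In MDA-MB-468 CSF2 held 2 counts in all controls and 1 in all depleted libraries, so no fold is given.

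IL23A (ENSG00000110944, chromosome 12, 56334174 to 56340410), the p19 subunit of interleukin-23, measured 3.79, 2.33 and 2.63 CPM in HCC1806 controls and 8.67, 4.29 and 3.64 after depletion. Depleted replicate 3 lay below control replicate 1, and the change of 0.91 (SE 0.44) did not pass (edgeR adjusted p-value 0.350). IL24 (ENSG00000162892, chromosome 1, 206897443 to 206904139), a cytokine of the interleukin-10 family, measured 0.667, 0.537 and 0.466 CPM and then 1.86, 0.823 and 0.868. The groups did not overlap, but the change of 1.07 (SE 0.55) did not pass (edgeR adjusted p-value 0.399). Depleted replicate 1 was the highest HCC1806 library for 8 of the 10 members, all but IL32 and TSLP, and so also for IL11 and LIF, which passed. Without both libraries of replicate 1 the changes of IL23A and IL24 were 0.67 and 0.75. In MDA-MB-468 IL23A and IL24 had log2 fold changes of 0.60 (SE 0.50) and 0.37 (SE 0.55) that did not pass, with overlapping groups.

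**Figure D4:**
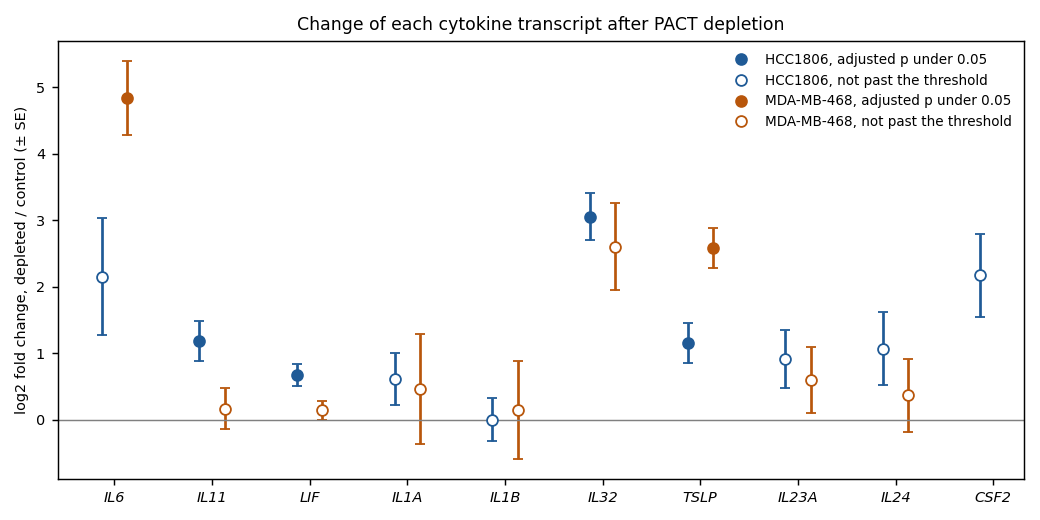
Log2 fold change of each cytokine transcript after depletion, with its SE, in HCC1806 (blue) and MDA-MB-468 (orange); filled points passed an adjusted p-value of 0.05. IL6 in HCC1806 rests on at most 2 counts in each control library, and CSF2 in MDA-MB-468 is not drawn because no library held more than 2 counts.

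The difference between the responses of the lines was tested for each member in the same model. With edgeR 0 of 10 passed, and DESeq2 called 0 of the 9 for which it gave an adjusted p-value, IL24 having none. At an unadjusted edgeR p-value under 0.05 were TSLP (0.00337), LIF (0.0287) and IL11 (0.0304), 3 of 10, and 2269 of the 27029 genes tested. Over all genes tested 0.122% passed, 0.0222% with the higher value in MDA-MB-468 and 0.0999% with the lower. PRKRA itself passed (0.87, SE 0.14, edgeR adjusted p-value 0.0198), with the smaller fall in MDA-MB-468, and in 5 of the 12 fits without 1 library. DESeq2 called 178 genes in all, PRKRA, IL6R and TYK2 among them. IL6R and TYK2 did not pass with edgeR (adjusted p-values of 0.207 and 0.202). The TSLP estimate was larger in MDA-MB-468, and those of LIF and IL11 were larger in HCC1806. That IL6 passed in MDA-MB-468 alone and IL32 in HCC1806 alone is therefore not shown to be a difference between the lines, and both had few counts in the line where they did not pass.

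Of 16 receptor genes of these cytokines 12 were tested, and edgeR called 0 in either line. An unadjusted p-value under 0.05 was found for 2 in HCC1806, both lower, and for 1 in MDA-MB-468, higher. Over all 27029 genes tested such values numbered 3909 in HCC1806 and 1424 in MDA-MB-468, and the unadjusted counts of this and the other lists are to be read against these. DESeq2 called 2 lower in HCC1806, IL6R and LIFR, and 0 in MDA-MB-468. Over all genes DESeq2 called 1245 in HCC1806 and 113 in MDA-MB-468, where edgeR called 672 and 46. The DESeq2 calls of this and the other lists are to be read against these totals. IL6R, the alpha chain of the interleukin-6 receptor, measured 38.9 ± 3.53 and 21.0 ± 9.26 CPM (SD, n = 3 each) in control and depleted HCC1806, a log2 fold change of -0.90 (SE 0.23, edgeR adjusted p-value 0.0514). LIFR, the chain that binds LIF, measured 20.6 ± 2.19 and 14.9 ± 3.03 CPM (-0.46, SE 0.15, edgeR adjusted p-value 0.117). IL6ST, the gp130 chain, was present at 137.0 and 148.7 CPM in the controls of HCC1806 and MDA-MB-468, and CRLF2, the TSLP receptor chain, held 8 counts in all libraries. The receptors had median log2 fold changes of -0.16 (HCC1806) and 0.12 (MDA-MB-468). Of 35 other interleukins and related cytokines 16 were tested, and 2 rose in HCC1806, with medians of 0.28 in HCC1806 and 0.17 in MDA-MB-468. DESeq2 called 3 in HCC1806, with CSF1 added (0.43, SE 0.11, edgeR adjusted p-value 0.0531), and gave no adjusted p-value for 5 of the 16. In MDA-MB-468 edgeR and DESeq2 called 0, and 1 had an unadjusted p-value under 0.05. EBI3, a subunit shared by interleukin-27 and interleukin-35, went from 2.54 ± 0.355 to 6.45 ± 1.38 CPM (SD, n = 3 each), a log2 fold change of 1.34 (SE 0.30, edgeR adjusted p-value 0.0290). IL7, a growth factor of lymphocytes, went from 2.85 ± 0.321 to 6.79 ± 1.60 CPM (1.25, SE 0.28, edgeR adjusted p-value 0.0336). Neither passed with HCC1806 alone (0.0528 and 0.0683), and each passed in 7 of the 12 fits without 1 library, that is, in all 6 without a library of MDA-MB-468 and in the fit without depleted replicate 1 of HCC1806. In MDA-MB-468 IL7 was at 0 counts in every library.

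Of 13 JAK-STAT genes 1 rose in HCC1806, the kinase TYK2, from 87.5 ± 4.72 to 114.4 ± 6.50 CPM (SD, n = 3 each), a change of 0.39 (SE 0.09, edgeR adjusted p-value 0.0336). It passed in 5 of the 12 fits without 1 library and not with HCC1806 alone (0.205). In MDA-MB-468 0 of 13 passed with edgeR (2 unadjusted) or DESeq2. Of 15 genes of interleukin-1 processing and signalling 1 rose in HCC1806, IRAK2, a kinase of the interleukin-1 receptor complex, from 9.85 ± 2.52 to 23.3 ± 3.99 CPM (1.24, SE 0.23, edgeR adjusted p-value 0.00892). IRAK2 passed with the line alone and lost the threshold only without depleted replicate 2 of HCC1806 (0.0526). In MDA-MB-468 0 of 15 passed with edgeR (2 unadjusted) or DESeq2. Of 9 factors of cytokine mRNA decay, ZFP36 and ZC3H12A among them, 0 passed with edgeR in HCC1806 or MDA-MB-468 (2 and 0 unadjusted), with medians of 0.07 and -0.01. DESeq2 called 1 in HCC1806, ZC3H12A, which encodes the nuclease Regnase-1, at 31.1 ± 5.92 and 46.8 ± 10.5 CPM (SD, n = 3 each), where its edgeR adjusted p-value was 0.0505.

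**Figure D5:**
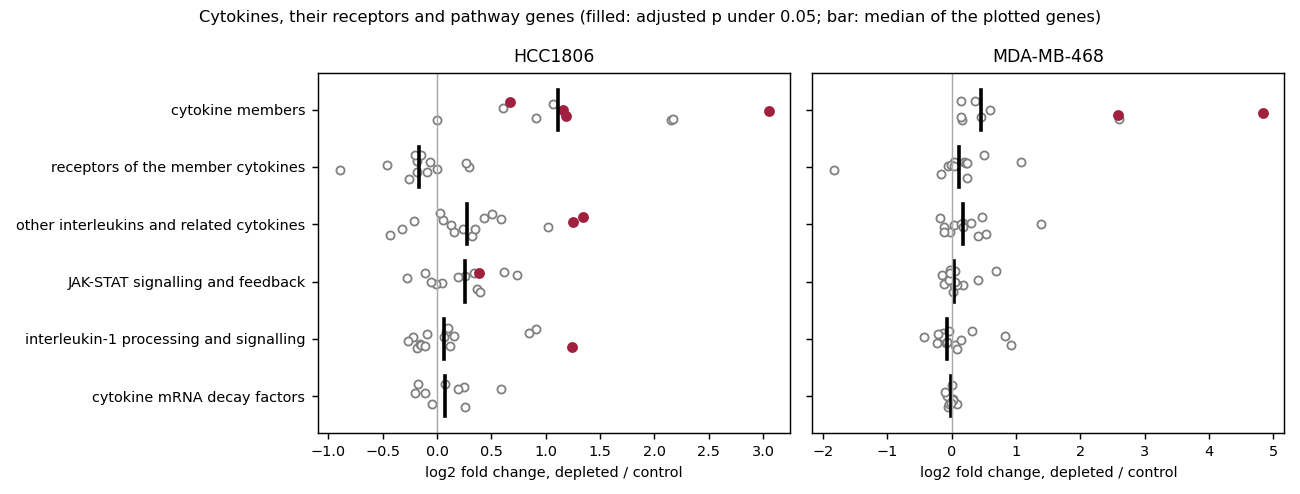
Log2 fold change of the cytokines, their receptors and pathway genes in each line, 1 point per gene tested, with genes at or under 3 counts in every library of a line left out; filled points passed and bars are medians. The cytokines have the highest median of the 6 lists in both lines, 1.11 and 0.46, and the medians of the receptors are -0.16 and 0.12. The cytokine list was drawn up with the rises of IL6 and IL32 known, so its place is partly set by that choice.

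Other transcripts moved in the same HCC1806 libraries. Of the 8 epithelial markers 3 fell in HCC1806, where 1.32% of all genes tested fell. These were EPCAM, CDH1 and KRT5, with log2 fold changes of -0.55, -0.38 and -0.92 (edgeR adjusted p-values of 0.0335, 0.0373 and 0.0106). In HCC1806 EPCAM and CDH1 passed in 5 and 2 of the 12 fits without 1 library, and KRT5 in all 12. The estimates of all 8 were negative there, with a median of -0.37, 6 had an unadjusted p-value under 0.05, and DESeq2 called 4 lower, with KRT19 added. In MDA-MB-468 0 of the 8 passed with edgeR (0 unadjusted) or DESeq2. Of 12 leukocyte markers 6 were tested and 1 rose in HCC1806, ITGAM, from 0.591 ± 0.187 to 3.58 ± 0.796 CPM (SD, n = 3 each). The summed leukocyte markers ranged from 9.11 to 9.92 CPM in HCC1806 controls and from 11.5 to 13.04 in depleted libraries, and from 112.3 to 129.5 and 99.2 to 103.5 in MDA-MB-468, where CD14 made up most of it. CD3E, CD3D, MS4A1 and TYROBP were at 0 in both HCC1806 groups. Of 9 fibroblast and endothelial markers 7 were tested and 0 passed with edgeR in HCC1806 or MDA-MB-468 (1 and 0 unadjusted). DESeq2 called 0 as well but gave no adjusted p-value for 4 of the 7 in HCC1806. Their sums ranged from 33.3 to 48.5 and 41.4 to 58.4 CPM in HCC1806 and from 23.0 to 26.6 and 20.6 to 25.7 in MDA-MB-468. The mitochondrial share of counts ranged from 11.6% to 15.0% for HCC1806 and from 6.31% to 8.90% for MDA-MB-468. The part of any of these in the cytokine values was not tested.

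The genes whose profiles were nearest to the members that passed were found by the root mean square difference, over the 12 libraries, of log2 CPM relative to the control mean of each line. For IL6 they were SPX (0.916), PDE2A (0.970) and BACH2 (0.970), at a root mean square change of IL6 itself of 2.38. For TSLP they were HOXB9 (0.411), PDE2A (0.496) and BACH2 (0.529), so that PDE2A and BACH2 stood near both. For IL32 they were AC131009.2 (0.506), ATF3 (0.605) and ITGAM (0.651). For IL11 they were PMAIP1 (0.171), HIVEP2 (0.190) and AL355388.2 (0.196), and for LIF CBARP (0.132), TRAF3 (0.133) and STK40 (0.153). HOXB9 overlaps HOXB7 in the annotation, AC131009.2 is annotated as a long intergenic RNA and AL355388.2 as an antisense transcript. Whether the counts of these 3 include reads of other genes was not tested.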

How the data were processed

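RNA of 12 libraries, 3 per group, was depleted of rRNA and sequenced, per the labels' protocols. The authors deposited raw counts per Ensembl gene, without normalization. The submitters' processing notes name Trimmomatic 0.36, STAR 2.5.2b, featureCounts, Subread 1.5.2 and the build GRCh38. Strand setting and annotation release are not given in the sources used here. Positions and exon lengths came from GENCODE 29, which held 56898 of 57500 IDs. Unnamed genes (485) took 0.0284% of counts.

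The counts were fitted with edgeR 4.0.16 in R 4.3.3 (filterByExpr, TMM, two-sided quasi-likelihood tests, 1 coefficient per group over all libraries). This tested 27029 of 44375 genes with a count, all 10 members among them, though a member can pass the filter through its highest group alone. Benjamini-Hochberg adjustment ran over every tested gene, with a threshold of 0.05. SE is the log2 fold change divided by the square root of the F statistic. Counting intervals (95%, exact binomial) use summed counts scaled by effective library size and cover counting error only.

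Members and lists were chosen with earlier results of these data known. Other genes were named by rule: up to 4 changed genes per list and line by adjusted p-value, and the 3 nearest profiles (log2 CPM, prior count 2) of each changed member. Receptors, CSF1, ZC3H12A and marker genes were named after their values were seen. Same-numbered control and depleted libraries deviated together in HCC1806 (correlations of 0.479, 0.294 and 0.152) and less in MDA-MB-468 (0.116, 0.0750 and 0.106), so numbers were taken to pair the HCC1806 libraries, although control 2 with depleted 3 there reached 0.351, above 2 of those 3 values. The model of 12 libraries did not use this pairing, and the replicate block named below did. Replicates differed by more than counting noise. The steps were tested on simulated data. Alternatives were DESeq2 1.42.0, RLE factors, library size only, no filter, a mean of at least 50 counts, each line alone, a replicate block, protein-coding genes, a threshold of 0.01, each library left out and, chosen after seeing the data, both HCC1806 libraries of replicate 1 left out.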

Additional observations from a re-analysis of the deposited data

How the results depend on the processing

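In HCC1806 4 members of 672 called genes passed in the model of 12 libraries, and the same 4 of 1245 with DESeq2. The number was 2 of 617 with RLE size factors (LIF and IL32), where IL11 and TSLP had edgeR adjusted p-values of 0.0503 and 0.0518. It was 1 (IL32) of 74 with each cell line fitted alone, and 1 (IL32) of 160 at an adjusted p-value under 0.01. Leaving out 1 library gave 1 to 3 members of 301 to 1792 called genes, and no filter on low counts gave 6 of 1351, with IL1A and CSF2 added. In MDA-MB-468 the number was 2 of 46, and 1 of 44 with a filter at a mean of 50 counts, which IL6, IL11, IL24 and CSF2 do not reach. It was 3 with DESeq2 (of 113) and with no filter (of 143), where IL32 was added. The interaction gave 0 under each setting that allowed it, and the control comparison gave 6 to 8. With the replicate number as a block the same members passed, 4 of 1947 and 2 of 102, and 0 in the interaction, so the pairing changed no call of a member. The block called more genes in all than the model of 12 libraries. The shares of all genes given beside the members hold for the latter only. The block could not give the control comparison, nor could each line alone give it or the interaction. No called member changed sign under these settings. Leaving out both HCC1806 libraries of replicate 1, chosen after seeing the data, gave 3 members (of 1255 calls) for HCC1806 and 2 (of 140) for MDA-MB-468. Depth limits IL6 in HCC1806 and IL32 and CSF2 in MDA-MB-468, whose control libraries together held 4, 6 and 2 counts.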
